A study of Mus musculus with 14 samples.

Results

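Fkbp5, Tsc22d3, Plin4, Map3k6, Sgk1, Zbtb16, Pdk4, Cdkn1a, Errfi1 and Rasd1 are genes known to be induced by glucocorticoid hormones, and they are described here across the anterior cingulate cortex, part of the medial frontal lobe, of 2 mouse strains. The 10 genes are 10 of the 53465 gene rows in the raw count tables and were found by matching their Ensembl identifiers to the symbols in the GRCm38 annotation. They were chosen with earlier results of these libraries known, among them lower levels of such genes in naive AKR/J mice. Every naive strain difference below, and every call made on it, is for that reason a description and no independent support. Bulk RNA was sequenced from cingulate tissue in 4 groups. AKR OFL (3 libraries) came from AKR/J mice and B6N OFL (3 libraries) from C57BL/6NJ mice, in both cases after observational fear conditioning, in which a mouse watches another receive shocks. Naive AKR (4 libraries) came from untrained AKR/J mice and naive B6N (4 libraries) from untrained C57BL/6NJ mice. The labels give no age, no time of day, no interval between conditioning and dissection and no hormone measurement, and they do not state whether each library is a different animal. The p-values therefore reflect the spread among the libraries at hand, which may be technical.

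Glucocorticoids, corticosterone in mice, are released from the adrenal gland in stress and in a daily rhythm. They bind the glucocorticoid receptor, held in the cytosol by heat shock protein chaperones, and the bound receptor enters the nucleus and acts on genes through short paired DNA elements. Its induced genes include a brake on the receptor itself (Fkbp5), regulators of transcription (Tsc22d3, Zbtb16), parts of kinase and G protein signalling (Sgk1, Map3k6, Errfi1, Rasd1), genes of lipid and fuel use (Plin4, Pdk4) and an inhibitor of the cell cycle (Cdkn1a). Several of them also respond to other stimuli.

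The promoters in which letters of such elements, or of the cAMP response element, were found are shown first. This order was used because the 10 genes are grouped by their known response to the receptor. RefSeq promoter windows (GRCm38.p6, 250 bases before to 50 bases after a start) were at hand for 8 of the 10 genes, in 17 windows. A full glucocorticoid response element was searched on both strands as AGAACA and TGTTCT with 3 free bases between them, with at most 1 mismatch in the 12 fixed letters. It was found in 1 of the 17 windows, that of an Sgk1 start, and in 54 of all 32851 windows of the same length (0.164%). The Sgk1 match had no mismatch, as in 3 windows of all, and lies 189 to 175 bases before the start. A single arm, AGAACA or its reverse complement TGTTCT, was found in 4 of the 17 windows, 3 of Sgk1 and 1 of Tsc22d3. Of all windows 19.0% held an arm. A full element with no mismatch contains both arms. The 17 windows are unequally shared among the genes, and several are of Sgk1. By gene, 2 of the 8 had an arm and 1 the full element. The cAMP response element TGACGTCA, searched on both strands as the letters of another stimulus, was found in 1 Errfi1 window and in 1.79% of all. The stretches below hold the 250 bases before the start, 5′ to 3′ on the strand of the gene. Capitals mark the full element in Sgk1 (chr10:21993640-21993889, plus strand), the single arm in Tsc22d3 (chrX:140600523-140600772, minus strand) and the cAMP response element in Errfi1 (chr4:150854820-150855069, plus strand). These letters are matches only, and the windows without them hold no information on more distant elements.
Sgk1: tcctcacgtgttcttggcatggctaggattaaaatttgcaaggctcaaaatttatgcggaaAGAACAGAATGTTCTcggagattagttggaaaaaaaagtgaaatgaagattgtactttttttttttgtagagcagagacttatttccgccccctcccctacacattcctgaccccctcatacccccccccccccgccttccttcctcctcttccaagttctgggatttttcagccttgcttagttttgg
Tsc22d3: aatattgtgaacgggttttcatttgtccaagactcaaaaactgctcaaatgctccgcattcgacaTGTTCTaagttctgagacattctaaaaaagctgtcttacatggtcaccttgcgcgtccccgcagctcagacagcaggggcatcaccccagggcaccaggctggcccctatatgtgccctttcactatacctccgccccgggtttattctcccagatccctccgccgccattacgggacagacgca
Errfi1: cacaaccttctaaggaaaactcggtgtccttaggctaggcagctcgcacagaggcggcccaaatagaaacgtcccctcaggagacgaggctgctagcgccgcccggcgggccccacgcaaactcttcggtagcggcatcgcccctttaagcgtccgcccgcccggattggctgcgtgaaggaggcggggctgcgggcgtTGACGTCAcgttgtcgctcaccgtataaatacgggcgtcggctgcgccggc

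Total counts per library were 13487311 to 14396289 in AKR OFL, 14063573 to 14526253 in B6N OFL, 19073921 to 23782061 in naive AKR and 20583264 to 25780227 in naive B6N. The OFL and naive libraries differ in more than conditioning. Replication-dependent histone genes took 0.0350% to 0.0376% of the counts in AKR OFL, 0.0359% to 0.0364% in B6N OFL, 0.00453% to 0.00471% in naive AKR and 0.00616% to 0.00643% in naive B6N. Conditioning and the separate library sets, with their own depth and composition, cannot be told apart, so OFL minus naive values are given as differences between library sets. Levels below are CPM, counts scaled to library size and by TMM over all 14 libraries. In bulk tissue, fewer cells of a type and less RNA per cell cannot be told apart.

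After conditioning 4 of the 10 genes passed the test of the strain difference and only Map3k6 differed by at least 2-fold, whereas in naive mice 9 of the 10 were lower in AKR than in B6N, 6 of them by at least 2-fold. Of all genes tested, 16.4% passed the strain test after OFL and 37.8% in naive libraries. Those called lower in AKR were 8.86% after OFL and 19.5% in naive libraries. The OFL fit has fewer libraries of lower depth, and the part of this in the smaller counts was not tested. The summed level of the 10 genes was 428 to 459 CPM in AKR OFL and 424 to 447 CPM in B6N OFL, with overlapping ranges, against 329 to 343 CPM in naive AKR and 512 to 609.7 CPM in naive B6N, which did not overlap. For 9 of the 10 genes the strain difference was smaller after OFL than in naive libraries. The exception was Pdk4, which was higher in AKR after OFL and overlapped between the strains in naive mice. All of the genes had counts in every library, from 23 for the lowest Rasd1 library to 3262 for the highest Tsc22d3 library, and all passed the expression filter of every fit.

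**Figure D1:**
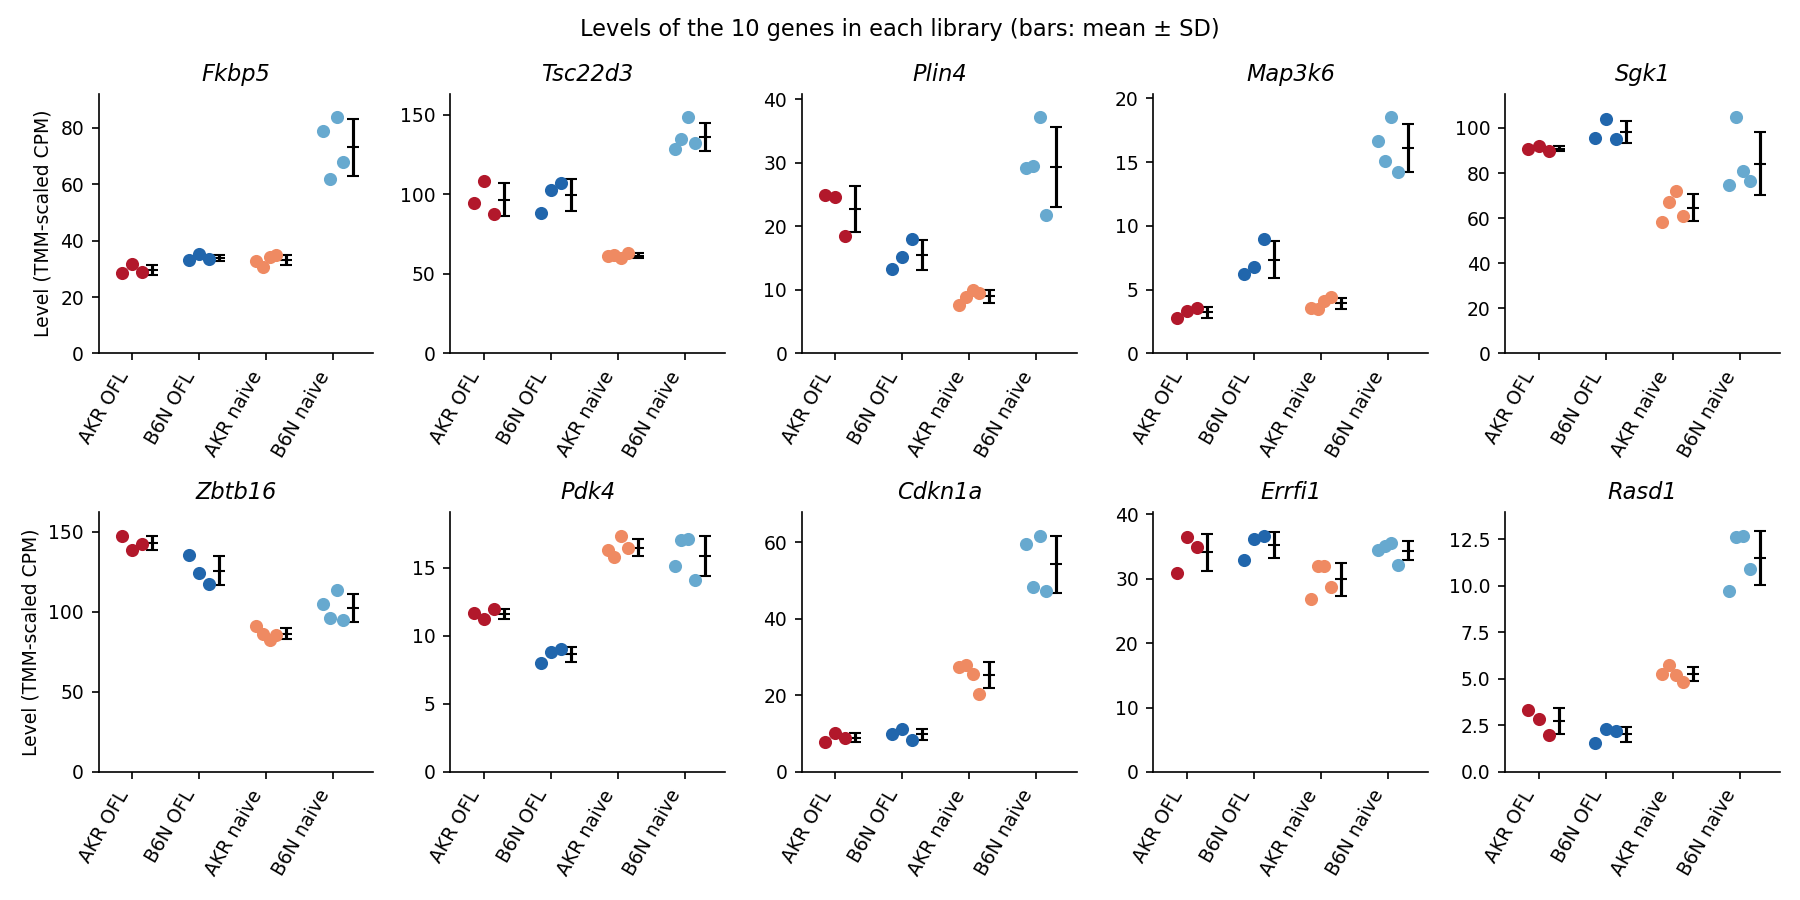
Level of each of the 10 genes in CPM (vertical axis, from 0 and scaled per gene) in every library of AKR OFL, B6N OFL, naive AKR and naive B6N (horizontal axis). Points are libraries and bars the mean ± SD (n = 3, 3, 4 and 4); naive B6N stands above naive AKR without overlap for every gene but Pdk4.

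Fkbp5 encodes a cochaperone that lowers the affinity of the glucocorticoid receptor for hormone and is itself induced by it (ENSMUSG00000024222, chr17:28399094-28517527, minus strand, GRCm38). It stood at 28.4, 31.8 and 28.7 CPM in the AKR OFL libraries, against 33.1, 35.3 and 33.3 CPM in the B6N OFL libraries. In naive AKR it was at 32.9, 30.6, 34.3 and 34.9 CPM, against 78.8, 61.9, 83.8 and 67.9 CPM in naive B6N. Naive B6N stood apart from the other groups, which lay within a narrow band. The AKR minus B6N difference was -0.20 (SE 0.07) on the log2 scale after OFL and -1.14 (SE 0.08) in naive libraries. In the OFL libraries the strains did not overlap, yet the difference missed the threshold (edgeR adjusted p = 0.0560). It passed when AKR OFL replicate 2 (adjusted p = 0.0276) or B6N OFL replicate 1 (adjusted p = 0.0457) was left out.

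Of the regulators of transcription, Tsc22d3 encodes a leucine zipper protein with anti-inflammatory actions (ENSMUSG00000031431, chrX:140539528-140600659, minus strand) and Zbtb16 a zinc finger repressor (ENSMUSG00000066687, chr9:48654297-48836222, minus strand). Tsc22d3 had 94.6, 108 and 87.3 CPM in AKR OFL, against 88.1, 103 and 107 CPM in B6N OFL, values that interleave. It had 61.0, 61.9, 59.8 and 63.1 CPM in naive AKR, against 128, 135, 148 and 132 CPM in naive B6N, more than 2-fold apart. The OFL groups thus lay between the naive ones for this gene. Its strain difference was -0.05 (SE 0.08, edgeR adjusted p = 0.751) after OFL and -1.14 (SE 0.04) in naive libraries, and the sign of the OFL value changed without AKR OFL replicate 3 (0.02) or B6N OFL replicate 3 (0.02). Zbtb16 had 148, 139 and 143 CPM in AKR OFL, against 135, 124 and 118 CPM in B6N OFL. In naive AKR it was at 91.3, 86.3, 82.7 and 85.5 CPM, against 105, 95.9, 114 and 94.8 CPM in naive B6N. AKR was the higher strain after OFL and the lower one in naive mice, without overlap in either. The Zbtb16 difference was 0.18 after OFL (SE 0.05, edgeR adjusted p = 0.0256) and -0.24 (SE 0.05) in naive libraries. That OFL call is fragile, since leaving out AKR OFL replicate 1 or 3, or B6N OFL replicate 2 or 3, gave adjusted p values of 0.0598 to 0.138.

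Of the signalling genes, Map3k6 encodes an upstream kinase of the stress-activated MAP kinase cascades (ENSMUSG00000028862, chr4:133240818-133252929, plus strand). It had 2.74, 3.34 and 3.57 CPM in AKR OFL, against 6.24, 6.79 and 8.99 CPM in B6N OFL. It had 3.59, 3.52, 4.14 and 4.41 CPM in naive AKR, against 16.6, 15.1, 18.5 and 14.2 CPM in naive B6N. AKR was the lower strain in both conditions, with no overlap. The difference was -1.19 after OFL (SE 0.17, edgeR adjusted p = 4.77e-05), called in every alternative run on the OFL libraries, and -2.04 (SE 0.10) in naive libraries, the largest of the 10 genes in both. Its level is low, with as few as 37 counts in a library.

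Sgk1 encodes the serum- and glucocorticoid-regulated kinase, which controls ion channels and transporters and is abundant in oligodendrocytes (ENSMUSG00000019970, chr10:21882184-21999903, plus strand). It had 90.5, 92.1 and 89.9 CPM in AKR OFL, against 95.6, 104 and 95.1 CPM in B6N OFL. In naive AKR it had 58.3, 67.3, 72.0 and 61.2 CPM, against 74.6, 105, 81.0 and 76.5 CPM in naive B6N, where replicate 2 was the highest. The strains did not overlap in either condition, but the OFL difference of -0.12 (SE 0.05) did not pass the test (edgeR adjusted p = 0.128). The naive difference was -0.38 (SE 0.09). Naive B6N replicate 2 also had the highest summed level of the 8 oligodendrocyte markers, 2315 CPM, in a group that began at 1616 CPM; its part in the Sgk1 value was not tested.

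Errfi1, which encodes a feedback inhibitor of the epidermal growth factor receptor (ENSMUSG00000028967, chr4:150853919-150868892, plus strand), varied least between groups. It had 30.9, 36.4 and 34.9 CPM in AKR OFL, against 32.9, 36.2 and 36.7 CPM in B6N OFL. It had 26.9, 32.0, 32.0 and 28.7 CPM in naive AKR, against 34.4, 35.1, 35.5 and 32.2 CPM in naive B6N, narrowly apart. The difference was -0.06 after OFL (SE 0.07, edgeR adjusted p = 0.692; 0.01 without AKR OFL replicate 1) and -0.20 (SE 0.06) in naive libraries. Rasd1 encodes a small Ras-like GTPase first found as a dexamethasone-induced gene (ENSMUSG00000049892, chr11:59963181-59964944, minus strand). It had 3.34, 2.86 and 1.97 CPM in AKR OFL, against 1.58, 2.31 and 2.19 CPM in B6N OFL, with overlap. In naive AKR it had 5.27, 5.76, 5.18 and 4.85 CPM, against 9.71, 12.6, 12.7 and 10.9 CPM in naive B6N, without overlap. Both OFL groups stood below both naive groups. The Rasd1 difference was 0.42 after OFL (SE 0.23, edgeR adjusted p = 0.258) and -1.12 (SE 0.10) in naive libraries.

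Of the metabolic genes, Plin4 encodes a perilipin, a coat protein of lipid droplets (ENSMUSG00000002831, chr17:56100591-56109803, minus strand). It had 24.9, 24.7 and 18.5 CPM in AKR OFL, against 13.2, 15.1 and 18.0 CPM in B6N OFL. It had 7.68, 8.82, 9.95 and 9.47 CPM in naive AKR, against 29.1, 29.5, 37.2 and 21.7 CPM in naive B6N. The order of the strains is opposite in the 2 conditions, without overlap in either. Plin4 was higher in AKR after OFL by 0.55 (SE 0.12, edgeR adjusted p = 0.00286), while its naive difference was -1.70 (SE 0.13). Pdk4 encodes a kinase that switches off pyruvate dehydrogenase and so spares glucose (ENSMUSG00000019577, chr6:5483351-5496309, minus strand). It had 11.6, 11.2 and 11.9 CPM in AKR OFL, against 8.02, 8.82 and 9.06 CPM in B6N OFL. In naive AKR it had 16.3, 15.8, 17.4 and 16.5 CPM, against 15.1, 17.0, 17.1 and 14.1 CPM in naive B6N, which overlapped. The Pdk4 difference was 0.42 after OFL (SE 0.11, edgeR adjusted p = 0.00946) and 0.06 (SE 0.07) in naive libraries.

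Cdkn1a encodes p21, an inhibitor of cyclin-dependent kinases that also responds to DNA damage (ENSMUSG00000023067, chr17:29090976-29100727, plus strand). It had 7.93, 10.2 and 8.81 CPM in AKR OFL, against 9.88, 11.2 and 8.42 CPM in B6N OFL. It had 27.4, 27.8, 25.5 and 20.3 CPM in naive AKR, against 59.6, 48.3, 61.7 and 47.3 CPM in naive B6N. The strains overlapped after OFL and not in naive mice, and both OFL groups were far below both naive groups. The difference was -0.14 after OFL (SE 0.13, edgeR adjusted p = 0.531) and -1.10 (SE 0.10) in naive libraries. Exons of the other strand cover 7.68% of the exonic bases of Cdkn1a and 0.294% of those of Plin4, and whether counting used strand is not given in the sources used here, so reads in these stretches are uncertain.

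After OFL 4 of the 10 were called, where 16.4% of all genes tested were. In these libraries, from which no naive value comes, 3 of the 10 (Plin4, Zbtb16 and Pdk4) were called higher in AKR, where 7.50% of the 17994 genes tested were. Map3k6 alone was called lower, where 8.86% were, and 6 genes did not pass. The median difference of the 10 genes was -0.05, against 0.00 over all genes tested. Without overlap between the strains after OFL stood 3 genes in each direction, higher in AKR for Plin4, Zbtb16 and Pdk4 and lower for Fkbp5, Map3k6 and Sgk1, where 31.2% of all genes tested did not overlap, 16.3% higher and 14.9% lower. Removing 1 OFL library at a time left between 3 and 5 of the 10 called. In the naive contrast 9 of the 10 genes were called lower in AKR and 0 higher, where 37.8% of the 17645 genes tested were called, 19.5% lower and 18.3% higher. Their naive median was -1.11, against 0.01 over all genes tested. The same 9 did not overlap between the strains, where 34.7% of all genes tested did not, 17.9% lower and 16.8% higher in AKR. This contrast is the one with which the genes were chosen.

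A smaller strain difference after OFL was also common among other genes. Of the 3176 genes called lower in naive AKR and tested in both conditions, 74.7% had a smaller difference after OFL, with a median of -0.16 after OFL and -0.31 in naive libraries. Of the 321 genes called at least 2-fold lower in naive AKR, 74.1% were still called lower after OFL, with a median of -1.23 after OFL and -1.50 in naive libraries. Of the 6 members at least 2-fold lower in naive AKR (Fkbp5, Tsc22d3, Plin4, Map3k6, Cdkn1a and Rasd1), Map3k6 was still called lower after OFL, Plin4 was called higher, and Fkbp5, Tsc22d3, Cdkn1a and Rasd1 did not pass.

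**Figure D2:**
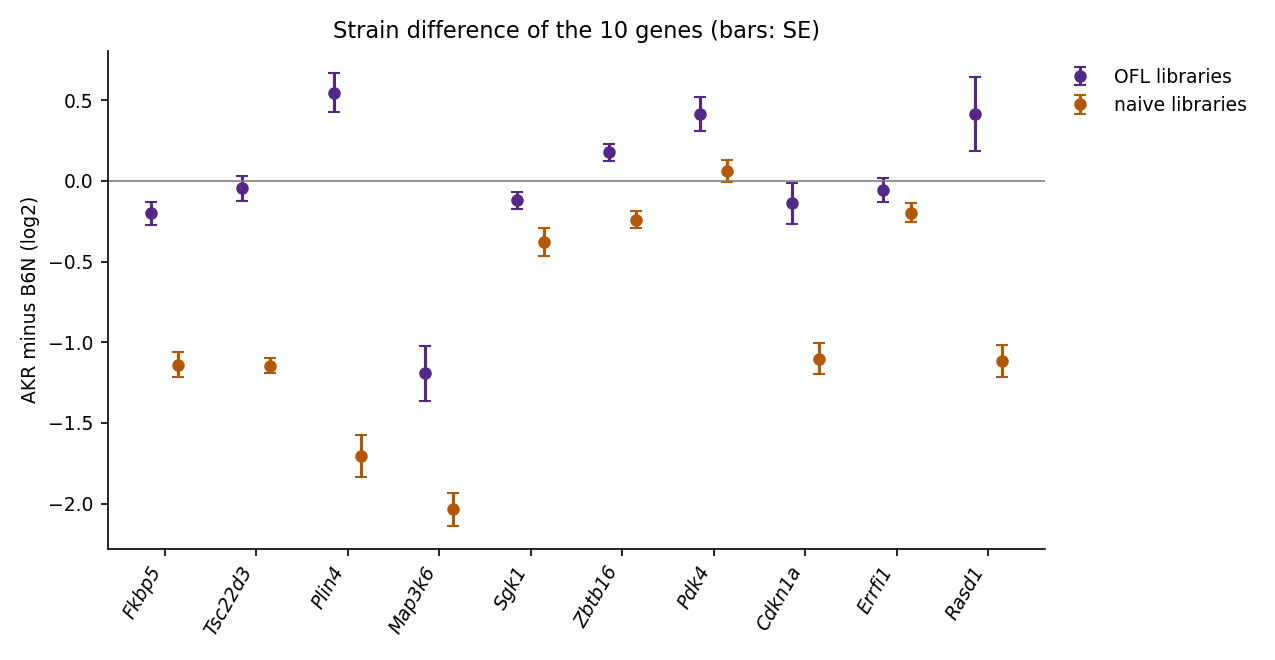
AKR minus B6N difference on the log2 scale (vertical axis) of each of the 10 genes (horizontal axis) after OFL and in naive libraries. Points are edgeR estimates and bars the SE; OFL values run from -1.19 for Map3k6 to 0.55 for Plin4, and naive values from -2.04 for Map3k6 to 0.06 for Pdk4.

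Between the library sets 8 of the 10 genes were called in AKR, where 78.7% of the 20291 genes tested were, and 9 of the 10 in B6N, where 78.4% were. In AKR, 5 genes were higher in OFL than in naive libraries (Tsc22d3, Plin4, Sgk1, Zbtb16 and Errfi1), where 39.8% of all genes tested were called higher, and 3 were lower (Pdk4, Cdkn1a and Rasd1), where 38.8% were called lower. In B6N, 2 genes were higher (Sgk1 and Zbtb16), where 40.0% of all genes were, and 7 were lower (Fkbp5, Tsc22d3, Plin4, Map3k6, Pdk4, Cdkn1a and Rasd1), where 38.4% were. The median log2 change of the 10 genes was 0.02 in AKR and -0.90 in B6N, against -0.01 and -0.00 over all genes tested. Both counts lie close to the background. The sizes of the changes are given below as a description, and how they rank among those of all genes was not examined.

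Cdkn1a and Rasd1 fell in both strains. Cdkn1a averaged 8.97 ± 1.13 CPM in AKR OFL and 25.3 ± 3.44 CPM in naive AKR, a log2 change of -1.49 (SE 0.13). In B6N it averaged 9.83 ± 1.39 CPM after OFL and 54.2 ± 7.48 CPM in naive mice, a change of -2.46 (SE 0.12; SD throughout, n = 3 in OFL and 4 in naive groups). Rasd1 averaged 2.72 ± 0.696 CPM in AKR OFL and 5.26 ± 0.380 CPM in naive AKR, a change of -0.95 (SE 0.17), and 2.03 ± 0.394 CPM in B6N OFL and 11.5 ± 1.44 CPM in naive B6N, a change of -2.50 (SE 0.16). Pdk4 was also lower in both strains, by -0.51 (SE 0.08) in AKR and -0.87 (SE 0.09) in B6N.

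Plin4 and Tsc22d3 were called in opposite directions in the strains. Plin4 averaged 22.7 ± 3.64 CPM in AKR OFL and 8.98 ± 0.984 CPM in naive AKR, a change of 1.34 (SE 0.15), and 15.4 ± 2.39 CPM in B6N OFL and 29.4 ± 6.31 CPM in naive B6N, a change of -0.92 (SE 0.13). Tsc22d3 averaged 96.7 ± 10.5 CPM in AKR OFL and 61.4 ± 1.39 CPM in naive AKR, a change of 0.65 (SE 0.07), and 99.3 ± 10.03 CPM in B6N OFL and 136 ± 8.73 CPM in naive B6N, a change of -0.45 (SE 0.06). Fkbp5 and Map3k6 fell in B6N, by 1.11 (SE 0.08) and 1.13 (SE 0.12) on the log2 scale, and did not pass the test in AKR, at -0.16 (SE 0.09) and -0.28 (SE 0.17).

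Zbtb16 and Sgk1 were higher after OFL in both strains. Zbtb16 averaged 143 ± 4.39 CPM in AKR OFL and 86.4 ± 3.58 CPM in naive AKR, a change of 0.73 (SE 0.06), and its change in B6N was 0.30 (SE 0.06). The change of Sgk1 was 0.49 (SE 0.08) in AKR and 0.22 (SE 0.08) in B6N, and the B6N value missed the threshold without B6N OFL replicate 2 (adjusted p = 0.0888), naive B6N replicate 1 (0.0682) or naive B6N replicate 4 (0.0662). Errfi1 changed by 0.19 (SE 0.07) in AKR, a value that missed the threshold without AKR OFL replicate 2 (adjusted p = 0.117), AKR OFL replicate 3 (0.0541) or naive AKR replicate 1 (0.0574), and stood at 0.04 (SE 0.07) in B6N. A scaling by protein-coding counts moved the median of all genes in these comparisons to 0.11 in AKR and 0.12 in B6N and changed the sign of none of the 10 genes, although Errfi1 then passed in B6N (adjusted p = 0.0357).

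**Figure D3:**
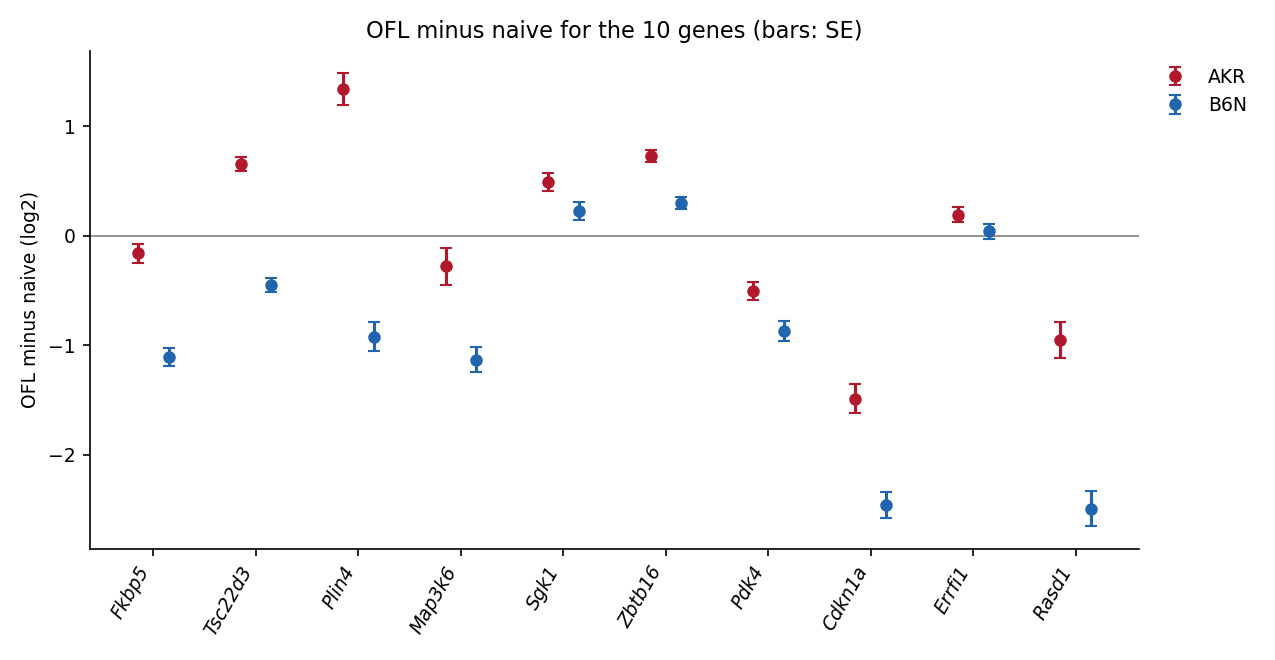
OFL minus naive difference on the log2 scale (vertical axis) of each of the 10 genes (horizontal axis) in AKR and in B6N. Points are edgeR estimates and bars the SE; the AKR point lies above the B6N point for every gene, from 1.34 against -0.92 for Plin4 to 0.19 against 0.04 for Errfi1.

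The difference between these changes, the OFL minus naive change in AKR minus that in B6N, was above 0 for all 10 genes, with a median of 0.90 against 0.01 over all genes tested. Since it equals the OFL strain difference less the naive one, and the genes were chosen with the naive one known, it is given as a description. Plin4 had the largest value, 2.26 (SE 0.20), followed by Rasd1 at 1.54 (SE 0.25) and Tsc22d3 at 1.11 (SE 0.09). Cdkn1a stood at 0.97 (SE 0.19), Fkbp5 at 0.95 (SE 0.12) and Map3k6 at 0.85 (SE 0.21). The lowest were Zbtb16 at 0.43 (SE 0.08), Pdk4 at 0.37 (SE 0.12), Sgk1 at 0.27 (SE 0.12) and Errfi1 at 0.15 (SE 0.10). Of the 10 genes 7 were called higher, all but Sgk1, Pdk4 and Errfi1, where 5.15% of the 20291 genes tested were called, 3.61% higher and 1.54% lower. The Map3k6 value missed the threshold without AKR OFL replicate 2 (adjusted p = 0.0613) or 3 (0.0761).

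A list of 24 other glucocorticoid-responsive genes, also drawn up with results of these data in view, was set beside the 10. After OFL, of 23 tested, 4 were called lower in AKR, 0 higher and 19 did not pass, with a median of -0.06. In naive libraries 18 of the 24 were called lower in AKR, 0 were higher and 6 did not pass, with a median of -0.47. Over all genes tested 8.86% were called lower in AKR after OFL and 19.5% in naive libraries. The difference was smaller after OFL for 22 of the 23 tested in both. Of all genes called lower in naive AKR and tested in both, 74.7% had a smaller one. Since the list was drawn up with these data in view, the count is a description only. Fam107a, encoding an actin-associated protein of astrocytes and neurons, averaged 246 ± 23.9 CPM in AKR OFL and 275 ± 3.17 CPM in B6N OFL, against 339 ± 32.3 CPM in naive AKR and 559 ± 21.2 CPM in naive B6N. Its difference was -0.17 after OFL (SE 0.06, edgeR adjusted p = 0.0426), a call held in 8 of 14 alternatives, and -0.72 (SE 0.05) in naive libraries.

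Ddit4, encoding an inhibitor of the mTOR complex, averaged 12.5 ± 2.51 CPM in AKR OFL and 17.7 ± 2.25 CPM in B6N OFL, against 29.3 ± 2.11 CPM in naive AKR and 47.8 ± 3.31 CPM in naive B6N. It was lower in AKR after OFL by -0.51 (SE 0.13, edgeR adjusted p = 0.00777), a call held in every alternative run, and stood at -0.70 (SE 0.06) in naive libraries. Nfkbia, encoding an inhibitor of NF-kB, differed by -0.28 after OFL (SE 0.09, edgeR adjusted p = 0.0376) and -0.60 (SE 0.05) in naive libraries, and Arrdc2, an arrestin-domain gene named after its values were seen, by -0.38 after OFL (SE 0.12, edgeR adjusted p = 0.0281) and -0.63 (SE 0.10) in naive libraries. The OFL calls of Nfkbia and Arrdc2 each held in 9 of 14 alternatives. The count of 4 after OFL fell to 1 without B6N OFL replicate 2, to 1 without B6N OFL replicate 3 and to 2 without AKR OFL replicate 1.

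The other genes named from the list did not pass the strain test after OFL. Klf9, encoding a Krüppel-like factor, differed by -0.10 after OFL (SE 0.05, edgeR adjusted p = 0.201) and -0.25 (SE 0.04) in naive libraries. Per1, a core clock gene, stood at 0.09 after OFL (SE 0.08, edgeR adjusted p = 0.534) and 0.03 (SE 0.10) in naive libraries. Dusp1, a phosphatase that switches off MAP kinases, stood at -0.22 after OFL (SE 0.16, edgeR adjusted p = 0.427) and 0.36 (SE 0.18) in naive libraries. It passed in 1 of 14 alternatives after OFL and in 2 of 16 in naive libraries. Without naive AKR replicate 4 its naive value was 0.55 and passed. The metallothionein gene Mt2, a metal-binding protein, stood at -0.11 after OFL (SE 0.11, edgeR adjusted p = 0.550) and -0.52 (SE 0.20) in naive libraries. Between library sets, 7 of the 24 were called higher and 13 lower in AKR OFL than in naive AKR, and 4 were higher and 18 lower in B6N OFL than in naive B6N, with medians of -0.27 in AKR and -0.69 in B6N. Over all genes tested 39.8% were called higher and 38.8% lower in AKR, and 40.0% higher and 38.4% lower in B6N. The difference between the changes was called higher for 8 of the 24 and lower for 0, with a median of 0.37. Among all genes tested 3.61% were called higher and 1.54% lower.

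**Figure D4:**
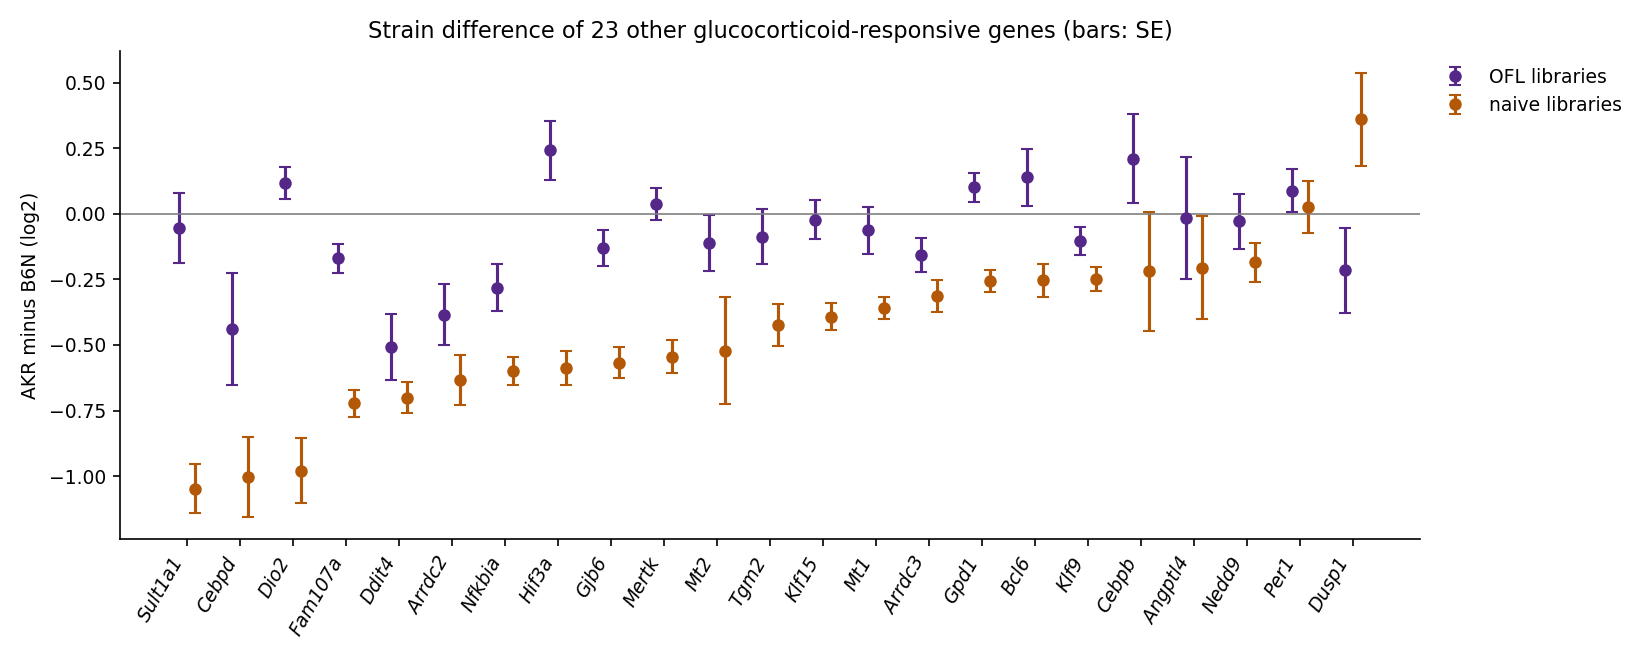
AKR minus B6N difference on the log2 scale (vertical axis) of 23 other glucocorticoid-responsive genes (horizontal axis, ordered by the naive value) after OFL and in naive libraries. Points are edgeR estimates and bars the SE; the naive values have a median of -0.42, and Lcn2 is left out because AKR libraries held at most 1 count of it.

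The genes of the receptors themselves had small strain differences. Of 9 genes for the receptors and their cofactors, 1 was called higher and 1 lower in AKR after OFL, with a median of -0.09, and 2 were higher and 4 lower in naive AKR, with a median of -0.11. Over all genes tested 16.4% were called after OFL and 37.8% in naive libraries. The difference between the changes was called higher for 1 of the 9 and lower for 2, with a median of 0.07. Of all genes tested 3.61% were called higher and 1.54% lower for it. Nr3c1, the glucocorticoid receptor gene, averaged 186 ± 14.4 CPM in AKR OFL and 205 ± 4.95 CPM in B6N OFL, against 111 ± 3.29 CPM in naive AKR and 103 ± 4.01 CPM in naive B6N. Its difference was -0.15 after OFL (SE 0.05, edgeR adjusted p = 0.0688) and 0.10 (SE 0.04) in naive libraries. The OFL value of Nr3c1 passed in 3 of 14 alternatives. Nr3c2, the mineralocorticoid receptor gene, stood at -0.14 after OFL (SE 0.06, edgeR adjusted p = 0.129) and 0.14 (SE 0.05) in naive libraries. The 2 genes called higher in naive AKR were Nr3c1, a call held in 6 of 16 alternatives, and Nr3c2, held in 10 of 16. Hsd11b1, whose enzyme regenerates active glucocorticoid inside cells, was lower in AKR after OFL by -0.33 (SE 0.11, edgeR adjusted p = 0.0453), a call held in 5 of 14 alternatives, and stood at -0.44 (SE 0.12) in naive libraries. Fkbp4, the cochaperone that favours hormone binding where Fkbp5 hinders it, stood at 0.10 after OFL (SE 0.07, edgeR adjusted p = 0.408) and -0.13 (SE 0.05) in naive libraries. The gene called higher after OFL was Hsp90ab1, a receptor chaperone named after its value was seen.

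Immediate early genes, which neuronal activity induces within minutes and some of which respond to handling, were looked at beside the 10. Of 12, 0 were higher and 2 lower in AKR after OFL, with a median of -0.16, and 0 were higher and 1 lower in naive AKR (Fosb, named after its value was seen), with a median of 0.11. Among all genes tested 16.4% were called after OFL and 37.8% in naive libraries. Fos averaged 60.1 ± 16.6 CPM in AKR OFL and 76.7 ± 8.56 CPM in B6N OFL, against 51.6 ± 26.4 CPM in naive AKR and 48.6 ± 8.21 CPM in naive B6N. It was lower in AKR after OFL by -0.36 (SE 0.12, edgeR adjusted p = 0.0481), a call held in 6 of 14 alternatives. Npas4 was lower by -0.79 (SE 0.19, edgeR adjusted p = 0.00670), held in 11 of 14, while Egr1 stood at 0.07 (SE 0.08, edgeR adjusted p = 0.654) and Arc at -0.14 (SE 0.11, edgeR adjusted p = 0.437). In naive libraries Fos stood at 0.07 (SE 0.27), Egr1 at 0.12 (SE 0.16), Arc at -0.07 (SE 0.24) and Npas4 at 0.20 (SE 0.24), all with a wide spread. The summed level of the 12 genes was 734 CPM in naive AKR replicate 4, the lowest of all libraries, and reached 1975 CPM in naive AKR. Without that library the naive values were 0.38 for Fos, 0.32 for Egr1, 0.21 for Arc and 0.49 for Npas4. Fos, Egr1 and Npas4 then passed the strain test and Arc did not.

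Markers of the cell types in the tissue moved with the groups as follows, and their part in the results for the 10 genes was not tested. The 7 neuron markers summed to 4098 to 4301 CPM in AKR OFL, 3807 to 4201 CPM in B6N OFL, 7014 to 7229 CPM in naive AKR and 6894 to 7407 CPM in naive B6N, so the naive strains overlapped. The 6 astrocyte markers summed to 3956 to 4059 CPM in AKR OFL, 4640 to 4754 CPM in B6N OFL, 2980 to 3522 CPM in naive AKR and 3389 to 3660 CPM in naive B6N. Most of this sum was Slc1a2, named after its values were seen. It averaged 3207.5 CPM in AKR OFL, 3888 CPM in B6N OFL, 2142 CPM in naive AKR and 2501 CPM in naive B6N. Between library sets 1 astrocyte marker was called higher and 3 lower in AKR OFL than in naive AKR. In B6N 2 were higher and 4 lower. Of the neuron markers 0 were higher and 7 lower in each strain. For oligodendrocyte markers it was 0 and 6 in AKR and 1 and 3 in B6N. For endothelial markers it was 0 and 4 in AKR and 2 and 4 in B6N. Between library sets 39.8% of all genes tested were called higher and 38.8% lower in AKR, and 40.0% and 38.4% in B6N. After OFL 1 astrocyte marker was called higher and 2 lower in AKR than in B6N. The 6 endothelial markers summed to 241 to 251 CPM in AKR OFL, 223 to 227 CPM in B6N OFL, 270.0 to 309 CPM in naive AKR and 277 to 289.6 CPM in naive B6N. The 8 oligodendrocyte markers summed to 1107 to 1363 CPM in AKR OFL, 1172 to 1709 CPM in B6N OFL, 1756 to 2035 CPM in naive AKR and 1616 to 2315 CPM in naive B6N. In the naive strain contrast 3 neuron markers were called higher and 1 lower in AKR, 1 astrocyte marker higher and 2 lower, 2 endothelial markers higher and 2 lower, and 2 oligodendrocyte markers higher and 1 lower. Over all genes tested 18.3% were called higher and 19.5% lower in naive AKR, and 7.50% higher and 8.86% lower in AKR after OFL. The 3 blood markers summed to 34.3 to 45.1 CPM in AKR OFL, 60.9 to 74.5 CPM in B6N OFL, 18.6 to 32.5 CPM in naive AKR and 34.7 to 42.7 CPM in naive B6N, so AKR was the lower strain in both conditions without overlap. Of these 3 markers, 2 were called lower and 0 higher in AKR after OFL, with a median of -0.97, and likewise 2 lower and 0 higher in naive libraries, with a median of -0.63. The largest part of the blood sum was Hbb-bs. It averaged 24.8 CPM in AKR OFL, 49.1 CPM in B6N OFL, 13.8 CPM in naive AKR and 21.2 CPM in naive B6N. Hba-a1, named after its values were seen, overlapped between the strains in both conditions. Mapping of AKR reads to these genes was not examined. After OFL the summed levels of 3 further lists were higher in AKR without overlap, at 178 to 184 CPM in AKR and 155 to 165 CPM in B6N for 4 mural markers, 186 to 193 CPM in AKR and 180.5 to 182 CPM in B6N for 5 microglia markers, and 114 to 123 CPM in AKR and 109 to 112 CPM in B6N for 2 oligodendrocyte precursor markers. The genes within these lists did not all move together. Of the mural markers 2 were called higher in AKR after OFL and 1 lower, with a median of -0.15. Of the microglia markers 2 were called higher and 1 lower, with a median of 0.03, and of the precursor markers 0 were called. Endothelial markers likewise had 2 called higher and 1 lower in AKR after OFL. In naive libraries the strains overlapped for the sums of the mural, microglia and precursor lists. The meninges, choroid plexus and striatum markers overlapped between the strains in naive libraries. No marker of these lists was at 0 in every library of a group.

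Within naive B6N, replicate 3 had the highest value of the group for 9 of the 10 genes, all but Sgk1, and for 17 of the 24 other responsive genes, while 23.1% of the 12380 genes that averaged 5 CPM or more were highest in it. Replicate 4 had the lowest value for 6 of the 10. In naive AKR the library most often highest, replicate 3, was so for 4 of the 10. After OFL, AKR replicate 2 and B6N replicate 3 were each highest for 5, and B6N replicate 1 was lowest for 7. The coefficient of variation was smaller in AKR for 5 of the 10 genes after OFL, with medians of 9.62% in AKR and 8.62% in B6N, and for 9 of the 10 in naive libraries, with medians of 7.86% in AKR and 12.2% in B6N. Leaving out replicate 3 of naive B6N, or any other naive library in turn, left the naive count at 9 of 10.

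**Figure D5:**
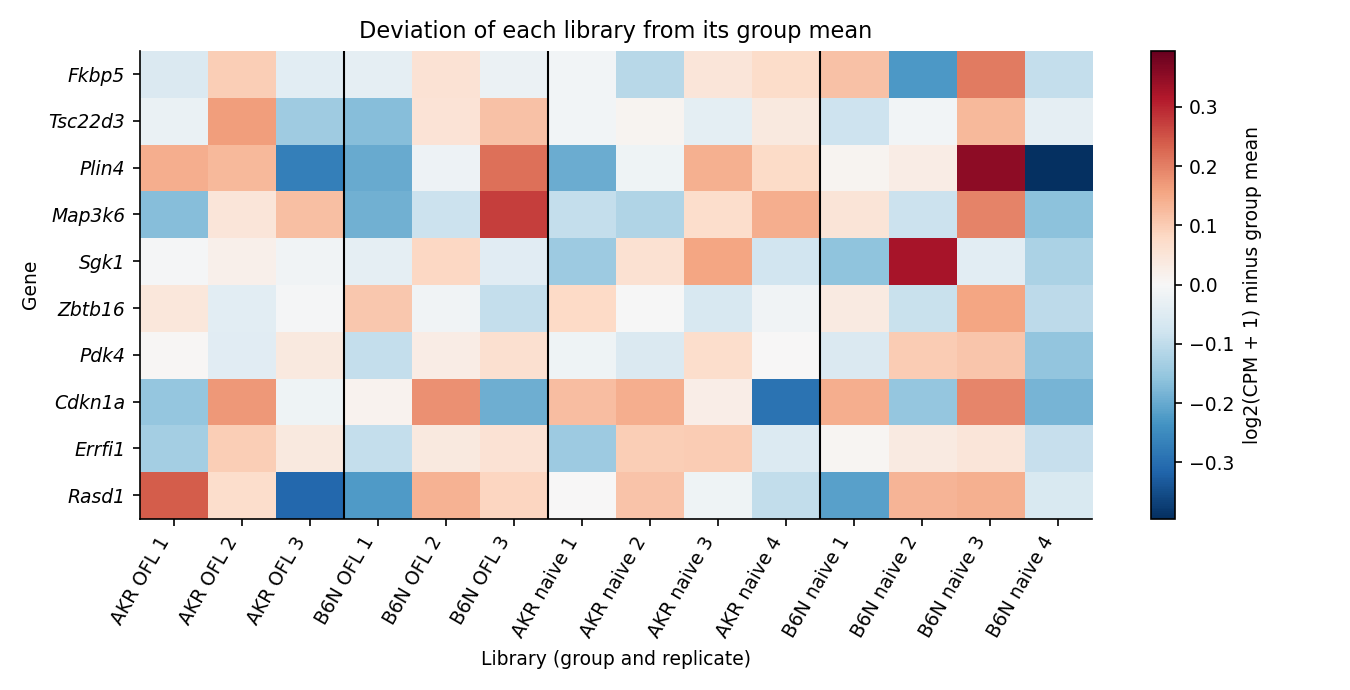
Deviation of each library (horizontal axis) from the mean of its group, in log2(CPM + 1), for each of the 10 genes (vertical axis); red is above and blue below the group mean. Naive B6N replicate 3 is red for all but Sgk1, and naive B6N replicate 4 is blue throughout.

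Per kilobase of exon, a scale on which genes can be compared, the same genes led in every group. In AKR OFL the order began with Zbtb16 at 27.1 CPM per kb, Tsc22d3 at 22.3 and Sgk1 at 18.5, which did not overlap. In B6N OFL it began with Zbtb16 at 23.8 CPM per kb, Tsc22d3 at 22.9 and Sgk1 at 20.02, each overlapping the next. In naive AKR it began with Zbtb16 at 16.4 CPM per kb, Tsc22d3 at 14.1 and Sgk1 at 13.2, of which the last 2 overlapped. Naive B6N differed in its head, with Tsc22d3 at 31.3 CPM per kb above Zbtb16 at 19.4, Sgk1 at 17.2 and Cdkn1a at 15.3, where Zbtb16 overlapped Sgk1 and Sgk1 overlapped Cdkn1a. The foot of the order was Map3k6 in AKR OFL (0.699 CPM per kb), naive AKR (0.851) and naive B6N (3.50), and Rasd1 in B6N OFL (1.26), where Map3k6 and Rasd1 overlapped. Cdkn1a stood at place 8 in AKR OFL, 6 in B6N OFL, 5 in naive AKR and 4 in naive B6N, and Plin4 at place 5 in AKR OFL, 7 in B6N OFL, 9 in naive AKR and 8 in naive B6N.

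Averaged over the 10 genes and centred on the mean of the 4 groups, the profile in log2(CPM + 1) was -0.20 in AKR OFL, -0.19 in B6N OFL, -0.23 in naive AKR and 0.62 in naive B6N. Fkbp5 was nearest to this mean profile, at a root mean square distance of 0.160 over the 4 groups, and Cdkn1a farthest, at 0.746. Among 11408 other protein-coding genes that averaged 5 CPM or more, the nearest were Adamts2, a procollagen-processing protease (distance 0.0308), Hspa1b, an inducible heat shock protein (0.0398), Acer2, an alkaline ceramidase (0.0612), Sult1a1, a phenol sulfotransferase that is also in the list of 24 (0.0653), and Sdf2l1, an endoplasmic reticulum protein (0.0702). Adamts2 averaged 10.3 CPM in AKR OFL and 11.04 CPM in B6N OFL, against 10.4 CPM in naive AKR and 19.1 CPM in naive B6N, so it too stood higher in naive B6N than in the other 3 groups. Hspa1b has a near-identical copy, Hspa1a, between which reads cannot be told apart, and its values are uncertain. Likeness over 4 group means is a description of level only.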

How the data were processed

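Bulk RNA was sequenced from 14 cingulate cortex samples in 4 groups of strain and condition. Total RNA was extracted with Trizol and libraries were made with a TruSeq RNA Sample Prep Kit v2, per the labels. Listed in the submitters' processing notes are the build GRCm38 and the tools TopHat2 2.1.1, cutadapt 2.7, HTSeq, CASAVA and edgeR; the annotation release and the strand setting of counting are not given in the sources used here. GRCm38 is the C57BL/6J assembly, and mapping of AKR reads to it was not examined here. The authors deposited raw counts per Ensembl gene in one table for naive and another for OFL libraries, and these counts were analysed; the deposited CPM files were not used here. GENCODE M21 (GRCm38) named 53360 of the 53465 identifiers.

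Counts were tested with edgeR 4.0.16 (limma 3.58.1, R 4.3.3): the default expression filter by group, TMM scaling and the two-sided quasi-likelihood F-test, with Benjamini-Hochberg adjustment over all genes tested and calls at an adjusted p under 0.05. Strain differences came from separate fits of the naive and of the OFL libraries. OFL minus naive differences, which share the naive libraries with the naive strain difference, and the difference between them came from 1 fit of all 14. Fits, scaling and lists cover all genes, and SEs come from the same fits. The common biological variation (BCV) was 0.0446 in naive, 0.0456 in OFL and 0.0450 over all libraries. On simulated counts 200 genes were changed, drawn only from genes above a floor on mean counts. Rasd1 lies below that floor after OFL, so the recovery does not cover it there. In the strain comparisons 2-fold changes were recovered for 100% in naive and 100% in OFL libraries. Changes of 1.5-fold were recovered for 94% in naive and 88% in OFL libraries, with 6.28% and 4.57% of the calls false. For the difference between the changes, recovery was 95% at 2-fold and 77% at 1.5-fold, with 4.44% of the calls false. Between library sets 6.98% of the calls in AKR and 6.97% in B6N were false. Alternatives were DESeq2 1.42.0 as the test, other scalings, count filters, 1 fit of all libraries, a replicate block and leaving out each library.

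The 10 genes and the other lists were chosen with earlier results of these data known. The text names all 10 in each comparison, fixed members of the other lists, and the 5 genes nearest in profile; any other gene is marked as named after its values were seen. Same-numbered libraries did not deviate together (r of -0.0426 to 0.0439), so the numbers were not treated as pairs. All pairs of replicates differed beyond counting noise. No column of the tables was left out.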

Additional observations from a re-analysis of the deposited data

Results flagged for a closer look

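The strain difference differed between OFL and naive libraries for 7 of the 10 genes, by the test of the difference between the OFL minus naive changes in AKR and in B6N (edgeR, adjusted over all genes). The log2 values were 0.95 for Fkbp5, 1.11 for Tsc22d3, 2.26 for Plin4, 0.85 for Map3k6, 0.43 for Zbtb16, 0.97 for Cdkn1a and 1.54 for Rasd1. Each value contains the naive strain difference with which the genes were chosen, so the 7 values describe the genes and are no independent support. In 20 checks of a gene within a naive group of 4 libraries, 0 had a library far from the others by Dixon's ratio, where chance gives about 1 in 20.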

How the results depend on the processing

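The naive count of 9 of the 10 genes called lower in AKR was the same in every alternative run. The count of the 24 other genes called after OFL, 4, was 1 with DESeq2 as the test and 2 with all 14 libraries in 1 fit, and 1 to 5 when 1 OFL library was left out. The count of all genes called after OFL, 2943, was 1934 without B6N OFL replicate 2 and 3514 without B6N OFL replicate 1, the ends of the range from leaving out 1 library. With a replicate block, which pairs libraries by number only, 3021 genes were called between strains after OFL and 6229 in naive libraries, and no call of the 10 genes changed. Some signs changed; ranges are those from leaving out 1 library at a time. After OFL these were Errfi1 (-0.11 to 0.0098), Tsc22d3 (-0.14 to 0.020), Fkbp4 (-0.011 to 0.16), Per1 (-0.022 to 0.196) and Egr1 (-0.068 to 0.15). In naive libraries they were Fos (-0.18 to 0.38, and -0.038 with the block), Per1 (-0.064 to 0.14), Egr1 (-0.022 to 0.32) and Arc (-0.24 to 0.21), of which Fos and Egr1 passed without naive AKR replicate 4. Npas4 and Dusp1 kept their signs and also passed without that library, at 0.49 and 0.55. With no count filter Dusp1, Egr1 and Npas4 passed in naive libraries. The cause of these changes was not tested. Fkbp5 in AKR passed the OFL minus naive test with no count filter (adjusted p = 0.00970) and without naive B6N replicate 2 (0.0438), as did the Sgk1 difference between changes with no count filter (0.00919) and that of Pdk4 without naive B6N replicate 4 (0.0426). Depth is lowest for Rasd1, at 23 counts in its lowest library; how far depth limits its OFL difference was not tested.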

Other observations

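Lcn2, encoding the iron-siderophore carrier lipocalin 2, is in the list of 24 other glucocorticoid-responsive genes and was named after its values were seen. It had 0, 0 and 0 counts in the AKR OFL libraries and 5, 5 and 2 counts in the B6N OFL libraries. It had 1 count in each naive AKR library, against 461, 157, 456 and 110 counts in the naive B6N libraries. The 4 naive B6N libraries thus held nearly all counts of the gene and differed among themselves, with replicates 1 and 3 above replicates 2 and 4. No fold is given, since the other groups are at or near the limit of detection, and the median of the naive strain differences over the other 23 genes of the list was -0.42.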
